A study of Homo sapiens with 12 samples.

Results

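The aldehyde dehydrogenase (ALDH) genes described here are ALDH1A1, ALDH1A2, ALDH1A3, ALDH1B1, ALDH2, ALDH3A1, ALDH3A2, ALDH3B1, ALDH6A1 and ALDH7A1. They were taken by symbol from a table of 60591 genes, all 10 were found in it, and all 10 passed the filter on low counts that kept 19108 genes for testing. RNA was sequenced from PC9 and H1650, established human lung adenocarcinoma lines that carry an activating EGFR mutation. Each line was collected at 0 h in 0.1% DMSO (T0), after 36 h with 10 μM erlotinib, or after 36 h with 0.1 μM osimertinib, which are both inhibitors of the EGFR kinase. There were 2 replicates in each of the 6 groups and 12 libraries in all. No library kept for 36 h in vehicle was analysed here, so a change after drug includes any change with time in culture, and the T0 libraries of a line serve both of its drug comparisons. The study describes the replicates as biological ones.

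ALDH enzymes oxidize aldehydes to carboxylic acids with NAD+ or NADP+ as the cofactor. The cytosolic ALDH1A enzymes make retinoic acid from retinaldehyde, the mitochondrial enzymes ALDH2 and ALDH1B1 remove acetaldehyde, and the ALDH3 enzymes act on aromatic and fatty aldehydes, many of them products of lipid peroxidation. ALDH6A1 and ALDH7A1 work in the breakdown of amino acids, on valine and lysine respectively. High ALDH activity is widely used as a marker of stem-like and drug-tolerant tumor cells, and ALDH3A1 is abundant in many non-small cell lung cancers.

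Levels are given as normalized CPM, the reads of a gene scaled to a common library size with TMM factors. Library totals ran from 17961765 to 26346187 reads, and at this depth 3 reads, the upper limit that a count of 0 allows, correspond to 0.116 to 0.168 normalized CPM. These limits and the intervals given for low counts cover counting error only. The epithelial markers EPCAM, CDH1, KRT7, KRT8, KRT18 and KRT19 had reads in every group, with summed levels of 6156 to 13288 normalized CPM per library. The 9 markers of leukocytes, endothelium and fibroblasts summed to between 11.02 and 49.7 normalized CPM, with the higher values in PC9 after osimertinib, where COL1A1 stood at 40.7 ± 5.72 (SD, n = 2). CD3E had no reads in 5 of the 6 groups. The part of these markers in the results was not tested, and in bulk RNA fewer cells of a type and less RNA per cell cannot be told apart.

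Promoter sequences are shown for 3 members with very different behaviour: ALDH1A1 rose from a few reads, ALDH1A3 moved in opposite directions in the 2 lines, and ALDH6A1 rose after both drugs in both lines. They are RefSeq sequences of GRCh38.p14, 250 bases upstream of the annotated start, written 5′ to 3′ on the strand of the gene, with matches to the searched motifs in capitals. These windows lie at chr9:72953054-72953303 on the minus strand, chr15:100879581-100879830 on the plus strand and chr14:74084454-74084703 on the minus strand. The starts are those of RefSeq and differ from the ends of the GENCODE gene spans given below. The ALDH1A1 and ALDH1A3 windows lie within those spans, and the ALDH6A1 window lies partly within its own.
ALDH1A1: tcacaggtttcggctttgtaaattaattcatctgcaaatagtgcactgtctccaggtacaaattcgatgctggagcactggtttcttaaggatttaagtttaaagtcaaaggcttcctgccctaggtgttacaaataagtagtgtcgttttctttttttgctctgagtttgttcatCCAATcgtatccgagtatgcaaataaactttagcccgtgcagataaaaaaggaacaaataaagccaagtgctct
ALDH1A3: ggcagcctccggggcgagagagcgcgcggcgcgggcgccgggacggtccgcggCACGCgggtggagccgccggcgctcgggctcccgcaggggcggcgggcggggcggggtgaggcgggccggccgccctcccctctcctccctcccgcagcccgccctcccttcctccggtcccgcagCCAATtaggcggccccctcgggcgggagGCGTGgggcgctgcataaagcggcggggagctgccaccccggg
ALDH6A1: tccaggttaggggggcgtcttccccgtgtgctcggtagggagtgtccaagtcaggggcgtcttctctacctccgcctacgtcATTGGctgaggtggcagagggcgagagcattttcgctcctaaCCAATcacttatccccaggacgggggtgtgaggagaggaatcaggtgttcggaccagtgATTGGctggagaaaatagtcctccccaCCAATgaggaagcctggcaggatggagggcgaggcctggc

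The motifs searched on both strands were the CCAAT box (CCAAT), the core of the xenobiotic response element bound by the aryl hydrocarbon receptor (GCGTG) and the antioxidant response element bound by NRF2 (TGACNNNGC). Of the 10 genes, 8 had an entry among the RefSeq promoters, with 11 promoters between them, and ALDH2 and ALDH3A1 had none. The ALDH1A1 window held 1 CCAAT box, 74 to 70 bases before the start, and was poor in GC at 38.4%. The ALDH1A3 window, at 82.4% GC, held 1 CCAAT box and 2 xenobiotic response cores, at 197 to 193 and 43 to 39 bases before the start. The ALDH6A1 window held 4 CCAAT boxes. Over all 35116 promoters, 32% held a CCAAT box, 32.2% a xenobiotic response core and 10.9% the antioxidant element. None of the 11 promoters held the antioxidant element, and these matches are letters in a window, not measured binding sites.

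Before treatment, PC9 carried far more mRNA of these 10 genes than H1650, and the difference lay mostly in ALDH3A1. Levels of different genes are compared per kb of the length given in the table, which is the union of a gene's exons and ran from 2840 bases for ALDH1A1 to 17914 for ALDH7A1. Long unions lower the per-kb level. In PC9 at T0, ALDH3A1 stood first at 128 ± 5.83 normalized CPM per kb (SD, n = 2), followed by ALDH1A3 at 67.9 ± 1.95, ALDH3A2 at 15.5 ± 0.675, ALDH1B1 at 12.7 ± 0.625 and ALDH3B1 at 10.3 ± 0.505. ALDH7A1, ALDH6A1 and ALDH2 lay between 1.73 and 3.46, and ALDH1A1 and ALDH1A2 under 0.1. Each gene's 2 PC9 values lay apart from those of the next gene in this order. In H1650 the order began with ALDH1A3 at 20.7 ± 0.0277 normalized CPM per kb, then ALDH1B1 at 9.84 ± 0.503, ALDH3A2 at 8.80 ± 0.523, ALDH3B1 at 6.10 ± 0.202 and ALDH7A1 at 5.01 ± 0.609. At the low end of this order ALDH2 overlapped ALDH1A1 and ALDH1A2 overlapped ALDH3A1.

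**Figure D1:**
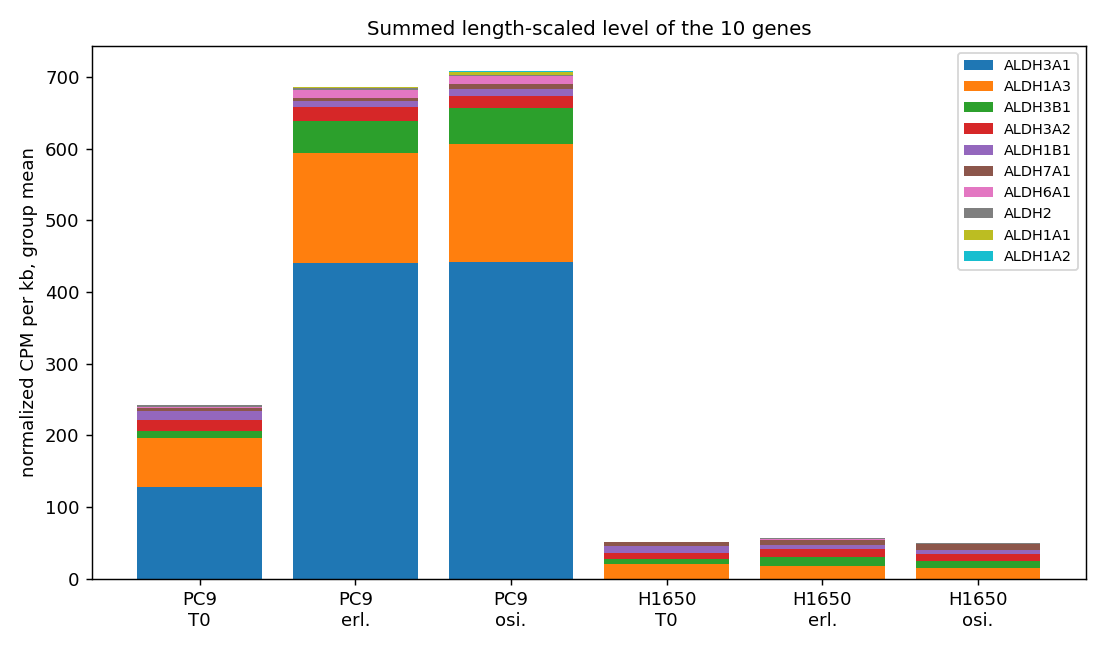
Stacked bars of the group mean level of the 10 genes in normalized CPM per kb, by cell line and treatment (erl., erlotinib, osi., osimertinib). The PC9 bars rise from 242 at T0 to 686 and 708 after the drugs and are mostly ALDH3A1, while the H1650 bars stay between 49.8 and 57.2 with hardly any ALDH3A1.

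The summed per-kb level of the 10 genes was 242 in PC9 at T0, 686 after erlotinib and 708 after osimertinib, and 51.5, 57.2 and 49.8 in H1650. ALDH3A1 made up 52.8%, 64.2% and 62.4% of the sum in PC9, and 0.033%, 0.230% and 0.202% in H1650. By per-kb level among the 60591 genes of the table, ALDH3A1 ranked 269 in PC9 at T0, 54 after erlotinib and 56 after osimertinib. ALDH1A3 ranked 617, 169 and 160 in the same groups.

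At T0, 7 of the 10 genes were lower in H1650 than in PC9 and 1, ALDH7A1, was higher (quasi-likelihood test of edgeR, with p-values adjusted by Benjamini and Hochberg's method over all tested genes and a threshold of 0.05). Over all tested genes 33.8% were lower and 35.8% higher. The median log2 difference of the 10 genes, H1650 minus PC9, was -0.79 against 0.0389 over all tested genes. ALDH1A1 and ALDH1A2, which had 2 to 11 reads in each T0 library, overlapped between the lines and did not pass the test.

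In PC9, nearly all of the 10 genes changed after drug, and most rose. After erlotinib 9 rose and 1, ALDH1B1, fell, where 32.7% of all tested genes were higher and 29.1% lower. After osimertinib 8 rose and ALDH1B1 fell, where again 32.7% were higher and 28.7% lower. The median log2 fold change of the 10 genes was 1.48 after erlotinib and 1.54 after osimertinib, against 0.0743 and 0.0644 over all tested genes. ALDH2 was the only member not called after osimertinib. ALDH1A1 and ALDH1A2, counted among the genes that rose, had few reads at T0 and passed the low count filter through drug-treated libraries.

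In H1650 most of the genes also rose, with a smaller median change. After erlotinib 6 rose and 2 fell, where 18.0% of all tested genes were higher and 18.5% lower. After osimertinib 7 rose and 2 fell, where 17.8% were higher and 17.9% lower. In DESeq2 6 rose and 2 fell after osimertinib. The calls of ALDH1A1, ALDH3A1 and ALDH3A2 after osimertinib were lost when certain single H1650 libraries were left out. ALDH1A3 and ALDH1B1 were the ones that fell with both drugs. The median log2 fold change of the 10 genes was 0.77 after erlotinib and 0.63 after osimertinib, against 0.00508 and 0 over all tested genes.

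**Figure D2:**
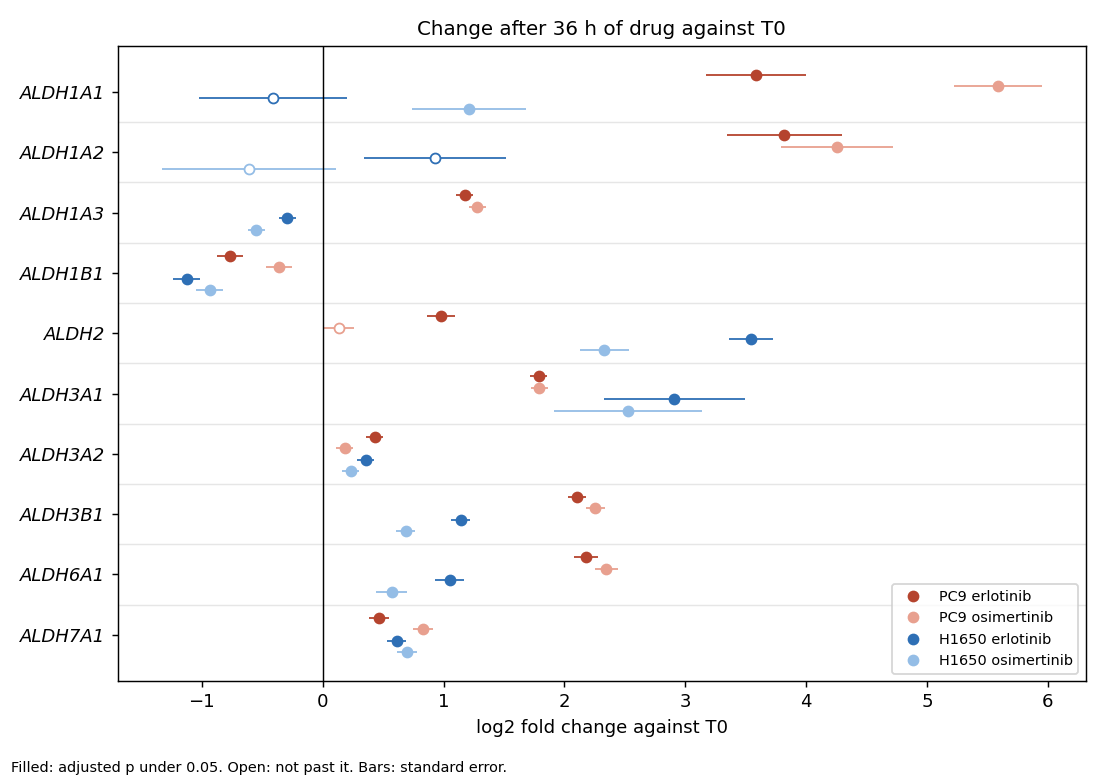
Log2 fold change against T0 with its standard error for each of the 10 genes, 1 point per line and drug, filled where the adjusted p was under 0.05. The PC9 points for ALDH1A1 and ALDH1A2 lie farthest right, at 3.59 to 5.58, ALDH1A3 lies right of 0 in PC9 and left of it in H1650, and ALDH1B1 lies left of 0 throughout. The H1650 points of ALDH3A1 rest on 3 reads in all at T0, and their bars can be narrower than counting error allows.

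**Figure D3:**
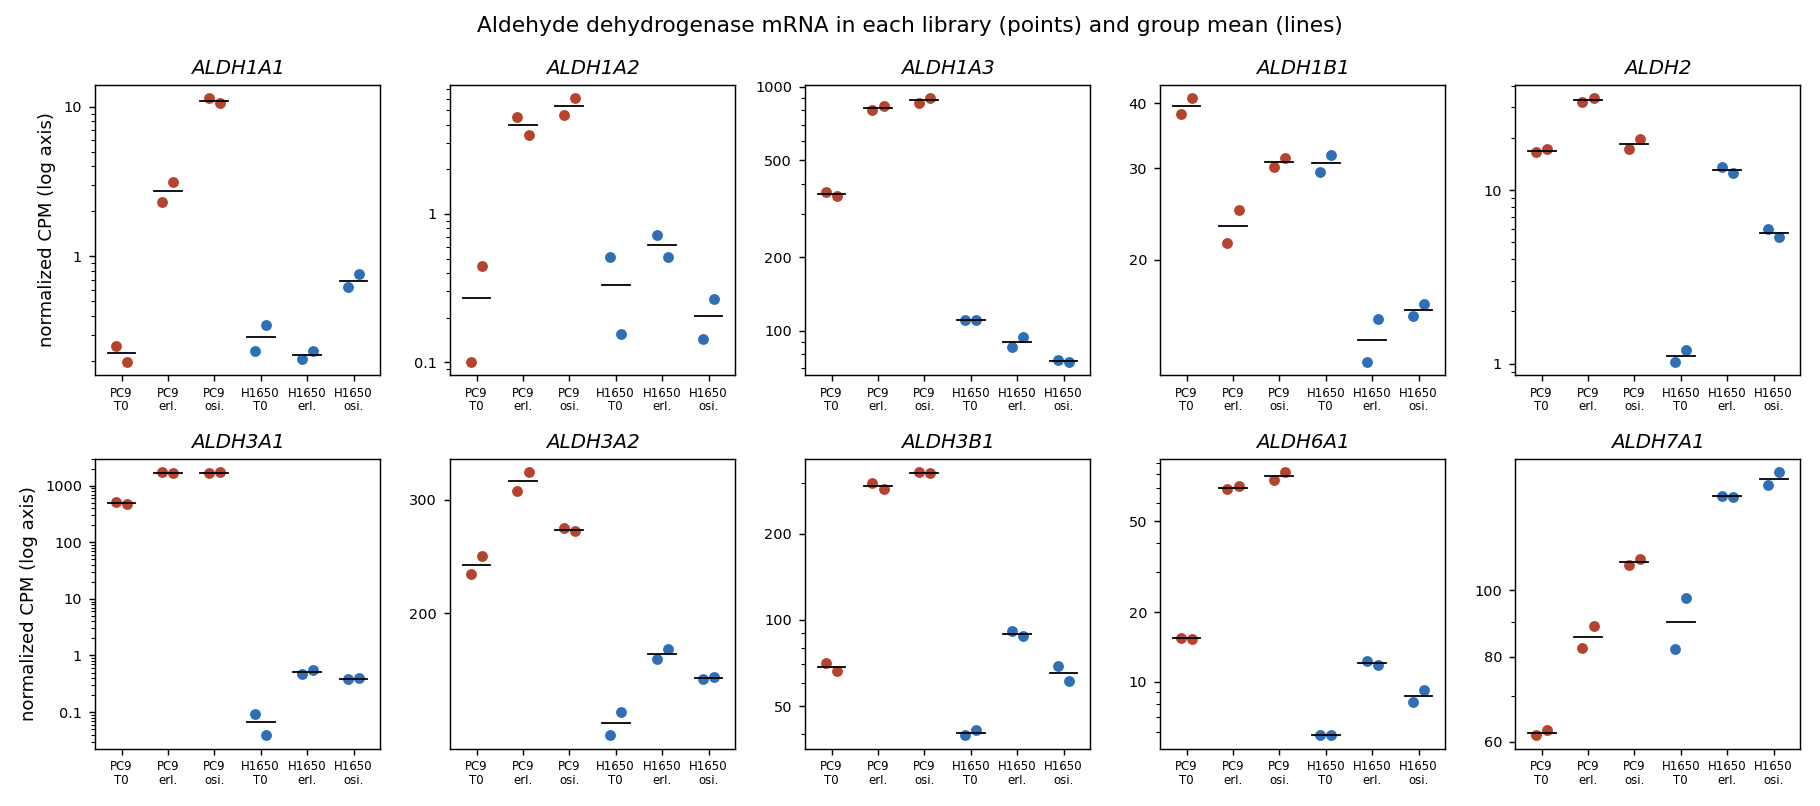
Normalized CPM of each of the 10 genes in each library (points, log axis with its own range for each gene) and the group means (lines), in red for PC9 and blue for H1650. The 4 drug-treated PC9 libraries lie above both T0 libraries for all genes other than ALDH1B1, and ALDH3A1 lies below 1 normalized CPM in all H1650 libraries.

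Among the ALDH3 genes, ALDH3A1 encodes a cytosolic enzyme of aromatic and medium-chain aldehydes (ENSG00000108602, minus strand of chromosome 17, 19737984 to 19748943 in GENCODE 29 on GRCh38). In PC9 it was at 511 and 479 normalized CPM at T0, 1749 and 1667 after erlotinib, and 1666 and 1762 after osimertinib. The treated libraries lay far above T0 and those of the 2 drugs overlapped. The log2 fold change was 1.79 after erlotinib (standard error, SE, 0.0693, adjusted p = 1.4e-18) and 1.79 after osimertinib (SE 0.0694, adjusted p = 1.18e-18). ALDH3A1 reads alone were 0.0451% to 0.0485% of all reads in PC9 at T0 and 0.163% to 0.177% after drug.

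H1650 had almost no ALDH3A1 mRNA, with 2 and 1 reads at T0, 9 and 12 after erlotinib, and 8 and 9 after osimertinib. The treated libraries lay above the T0 libraries but at under 0.6 normalized CPM. The level after erlotinib was 8.11 times that at T0 (95% counting interval 2.42 to 42.5) and after osimertinib 6.18 times (1.79 to 32.9), with adjusted p of 0.000208 and 0.00245. The second call was lost without T0 replicate 2 of H1650 (adjusted p = 0.0725). Without T0 replicate 1, which left 1 read at T0, the fitted log2 fold changes of 2.91 and 2.52 became 3.55 and 3.16. At T0, PC9 had 7825 times the ALDH3A1 level of H1650 (95% counting interval 2677 to 37947), from 19872 reads against 3. Its difference between the lines had the smallest adjusted p of the 10 genes, 1.23e-28, and its fitted log2 value of -12.81 became -13.47 without T0 replicate 1 of H1650.

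ALDH3B1 encodes an enzyme of membrane-bound fatty aldehydes (ENSG00000006534, plus strand of chromosome 11, 68008578 to 68029282). In PC9 it stood at 70.8 and 66.0 normalized CPM at T0, 301 and 287 after erlotinib, and 329 and 324 after osimertinib. The treated libraries lay far above T0, with log2 fold changes of 2.10 (SE 0.0773, adjusted p = 4.01e-19) and 2.26 (SE 0.0777, adjusted p = 8.96e-20). In H1650 the values were 39.5 and 41.4 at T0, 91.2 and 87.5 after erlotinib, and 69.0 and 61.2 after osimertinib. Here too the groups did not overlap, and the log2 fold changes were 1.14 (SE 0.0794, adjusted p = 5.46e-12) and 0.69 (SE 0.0800, adjusted p = 9.32e-08).

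ALDH3A2, the fatty aldehyde dehydrogenase of the endoplasmic reticulum whose loss causes Sjögren-Larsson syndrome, changed little (ENSG00000072210, plus strand of chromosome 17, 19648136 to 19677598). In PC9 it was at 230 and 245 normalized CPM at T0, 309 and 332 after erlotinib, and 271 and 268 after osimertinib. The rise after erlotinib was 0.43 on the log2 scale (SE 0.0701, adjusted p = 5.06e-06). The rise after osimertinib was 0.18 (SE 0.0703, adjusted p = 0.0269), and its call was lost with no filter on low counts (adjusted p = 0.402) and with 1 fit per cell line (0.143). Leaving out 1 of 3 libraries, T0 replicate 1 or either osimertinib replicate of PC9, also lost it (0.0664 to 0.239). In H1650 ALDH3A2 was at 129 and 141 at T0, 170 and 176 after erlotinib, and 158 and 159 after osimertinib, with rises of 0.36 (SE 0.0715, adjusted p = 0.000223) and 0.23 (SE 0.0715, adjusted p = 0.0113). The latter was lost without T0 replicate 1 (0.173) and without either osimertinib replicate of H1650 (0.0524 and 0.0663).

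The 3 ALDH1A genes, which encode the enzymes of retinoic acid synthesis, behaved differently in the 2 lines. ALDH1A3 was the abundant one (ENSG00000184254, plus strand of chromosome 15, 100877714 to 100916626). In PC9 it was at 370 and 355 normalized CPM at T0, 801 and 833 after erlotinib, and 862 and 899 after osimertinib. Each treated library lay far above both T0 libraries, with log2 fold changes of 1.17 (SE 0.0688, adjusted p = 1.43e-14) and 1.28 (SE 0.0690, adjusted p = 2.03e-15). In H1650 it was at 110 in both T0 libraries, at 85.5 and 94.6 after erlotinib, and at 76.1 and 74.6 after osimertinib. All 4 treated H1650 libraries lay below T0, and the gene fell by 0.29 (SE 0.0719, adjusted p = 0.00195) and by 0.55 (SE 0.0724, adjusted p = 7.17e-07) on the log2 scale. The fall after erlotinib was lost without erlotinib replicate 1 of H1650 (adjusted p = 0.0719).

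ALDH1A1, whose protein is the usual target of the ALDEFLUOR assay for stem-like cells, had only a few reads at T0 (ENSG00000165092, minus strand of chromosome 9, 72900662 to 73080442). PC9 had 5 and 4 reads at T0, 52 and 81 after erlotinib, and 248 and 189 after osimertinib. As normalized CPM these were 0.252 and 0.197 at T0, 2.33 and 3.16 after erlotinib, and 11.5 and 10.6 after osimertinib, 3 groups without overlap. The level after erlotinib was 12.4 times that at T0 (95% counting interval 6.32 to 27.6, adjusted p = 1.52e-08) and after osimertinib 49.3 times (25.7 to 109, adjusted p = 1.2e-13). In H1650 there were 5 and 9 reads at T0, 4 and 5 after erlotinib, and 13 and 17 after osimertinib. After erlotinib no change was detectable at this depth (log2 fold change -0.41, 95% interval -1.66 to 0.84, adjusted p = 0.646). The rise after osimertinib was 1.21 (SE 0.473, adjusted p = 0.0469), a call that was lost in DESeq2 (adjusted p = 0.0946), with no low count filter (0.0784), with 1 fit per cell line (0.104), and without any 1 of the T0 or osimertinib libraries of H1650 (0.0773 to 0.218).

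ALDH1A2 is the main retinaldehyde dehydrogenase of the early embryo (ENSG00000128918, minus strand of chromosome 15, 57953424 to 58497866). In PC9 it had 2 and 9 reads at T0, 101 and 87 after erlotinib, and 101 and 108 after osimertinib. The treated libraries, at 3.39 to 6.05 normalized CPM, were all above T0, at 0.101 and 0.444. The level was 14.3 times that at T0 after erlotinib (95% counting interval 7.81 to 29.1, adjusted p = 5.94e-08) and 19.3 times after osimertinib (10.6 to 39.3, adjusted p = 5.69e-09). The size depended on the T0 library used. The fitted log2 fold changes of 3.82 and 4.26 became 3.13 and 3.57 without T0 replicate 1 of PC9, and 5.21 and 5.65 without T0 replicate 2, all called. In H1650 there were 11 and 4 reads at T0, 14 and 11 after erlotinib, and 3 and 6 after osimertinib. Both treated groups overlapped T0, and neither gave a call (adjusted p = 0.231 and 0.56).

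Of the mitochondrial enzymes of acetaldehyde, ALDH2 (ENSG00000111275, plus strand of chromosome 12, 111766887 to 111817529) was the member whose log2 response was called higher in H1650. Its level was lower in H1650 than in PC9 at T0 and with each drug. In H1650 it was at 1.03 and 1.20 normalized CPM at T0, 13.6 and 12.6 after erlotinib, and 5.96 and 5.34 after osimertinib. The 3 groups did not overlap, and the log2 fold changes were 3.54 (SE 0.181, adjusted p = 9.8e-15) and 2.33 (SE 0.202, adjusted p = 4.54e-10). In PC9 it was at 16.5 and 17.2 at T0, 32.4 and 33.9 after erlotinib, and 17.3 and 19.7 after osimertinib. After erlotinib it was higher by 0.98 (SE 0.116, adjusted p = 2.98e-08). The osimertinib libraries lay just above T0, with a log2 fold change of 0.13 (95% interval -0.12 to 0.38, adjusted p = 0.354), so a change there was not detectable.

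ALDH1B1, a mitochondrial enzyme related to ALDH2, fell in both lines (ENSG00000137124, plus strand of chromosome 9, 38392664 to 38398661). In PC9 it was at 38.1 and 40.9 normalized CPM at T0, 21.5 and 24.9 after erlotinib, and 30.2 and 31.4 after osimertinib. It fell by 0.77 (SE 0.106, adjusted p = 3.78e-07) and by 0.36 (SE 0.105, adjusted p = 0.00387) in log2 terms, with no overlap between the groups. In H1650 it was at 29.5 and 31.8 at T0, 12.7 and 15.3 after erlotinib, and 15.6 and 16.5 after osimertinib. There it fell by 1.12 (SE 0.113, adjusted p = 6.38e-09) and by 0.94 (SE 0.110, adjusted p = 1.18e-07), and all 4 treated libraries lay below both T0 libraries.

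The amino acid enzymes rose in both lines. ALDH6A1, the methylmalonate semialdehyde dehydrogenase of valine breakdown (ENSG00000119711, minus strand of chromosome 14, 74056850 to 74084493), was at 15.5 and 15.4 normalized CPM in PC9 at T0, 68.9 and 70.9 after erlotinib, and 75.4 and 82.0 after osimertinib. Its 4 treated PC9 libraries lay well above T0, with log2 fold changes of 2.18 (SE 0.0974, adjusted p = 3.39e-17) and 2.35 (SE 0.0978, adjusted p = 6.17e-18). In H1650 it was at 5.83 and 5.82 at T0, 12.3 and 11.8 after erlotinib, and 8.11 and 9.17 after osimertinib. The H1650 groups were also apart, with rises of 1.05 (SE 0.123, adjusted p = 9.82e-08) and 0.57 (SE 0.128, adjusted p = 0.000754).

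ALDH7A1, the antiquitin of lysine breakdown (ENSG00000164904, minus strand of chromosome 5, 126531200 to 126595418), rose in both lines after both drugs. In PC9 it was at 61.3 and 62.5 normalized CPM at T0, 82.4 and 88.6 after erlotinib, and 109 and 111 after osimertinib. In H1650 it was at 82.0 and 97.5 at T0, 138 and 137 after erlotinib, and 142 and 149 after osimertinib. No treated library overlapped T0 of its line, and the rises were 0.47 (SE 0.0821, adjusted p = 1.57e-05) and 0.83 (SE 0.0821, adjusted p = 8.38e-10) in PC9, and 0.61 (SE 0.0797, adjusted p = 5.43e-07) and 0.70 (SE 0.0795, adjusted p = 6.28e-08) in H1650. The difference of its response, H1650 minus PC9, was 0.15 for erlotinib (95% interval -0.0888 to 0.38) and -0.13 for osimertinib (-0.36 to 0.10).

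The difference in response between the lines was tested directly, as the log2 fold change in H1650 minus that in PC9. For erlotinib 5 of the 10 genes responded lower in H1650 and 1, ALDH2, higher, where 19.8% of all tested genes were lower and 21.1% higher. For osimertinib 6 were lower and ALDH2 was higher, where 20.5% were lower and 21.5% higher. The median difference over the 10 genes was -0.66 and -1.07, against -0.0325 and -0.0257 over all tested genes. ALDH1A1 and ALDH1A2 had the largest differences, -4.00 and -2.89 for erlotinib and -4.37 and -4.87 for osimertinib, both from few reads. Leaving out 1 T0 library moved the ALDH1A2 differences to between -4.28 (without T0 replicate 2 of PC9) and -1.85 (without T0 replicate 1 of H1650, adjusted p = 0.215) for erlotinib, and to between -6.26 and -3.83 for osimertinib by the same libraries. For ALDH1A3 the differences were -1.46 (SE 0.0994, adjusted p = 1.15e-12) and -1.83 (SE 0.0999, adjusted p = 1.2e-14). For ALDH2 they were 2.57 (SE 0.225, adjusted p = 2.32e-10) and 2.20 (SE 0.240, adjusted p = 1.4e-08).

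ALDH3A1, ALDH3A2 and ALDH7A1 showed no difference between the lines that passed the test with either drug. For ALDH3A1 the estimate was wide, 1.12 for erlotinib (95% interval -0.15 to 2.40) and 0.73 for osimertinib (-0.55 to 2.02). It rests on 3 reads of H1650 at T0, and counting error on so few reads can exceed these intervals. For ALDH3A2 it was narrow, -0.0753 (-0.28 to 0.13) and 0.0511 (-0.15 to 0.26). ALDH1B1 fell more in H1650 with osimertinib, by -0.57 (SE 0.152, adjusted p = 0.003), while for erlotinib the difference of -0.36 did not pass (adjusted p = 0.0654).

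Erlotinib and osimertinib differ in structure and in how they bind EGFR, osimertinib reacting covalently with the kinase and erlotinib binding reversibly, and they were given at different doses. A difference between them is therefore a difference between 10 μM of one and 0.1 μM of the other at 36 h. In PC9, 3 of the 10 genes were higher with osimertinib and 2 lower, where 10.1% of all tested genes were higher and 6.41% lower. In H1650, 0 were higher and 4 lower by edgeR, where 5.02% of all tested genes were higher and 3.73% lower. The count of 0 higher was also 0 in DESeq2, and it was 1 (ALDH1A1) at an unadjusted p under 0.05. Over these comparisons the median log2 difference of the 10 genes, osimertinib minus erlotinib, was 0.16 in PC9 and -0.32 in H1650, against 0.0036 and 0 over all tested genes.

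**Figure D4:**
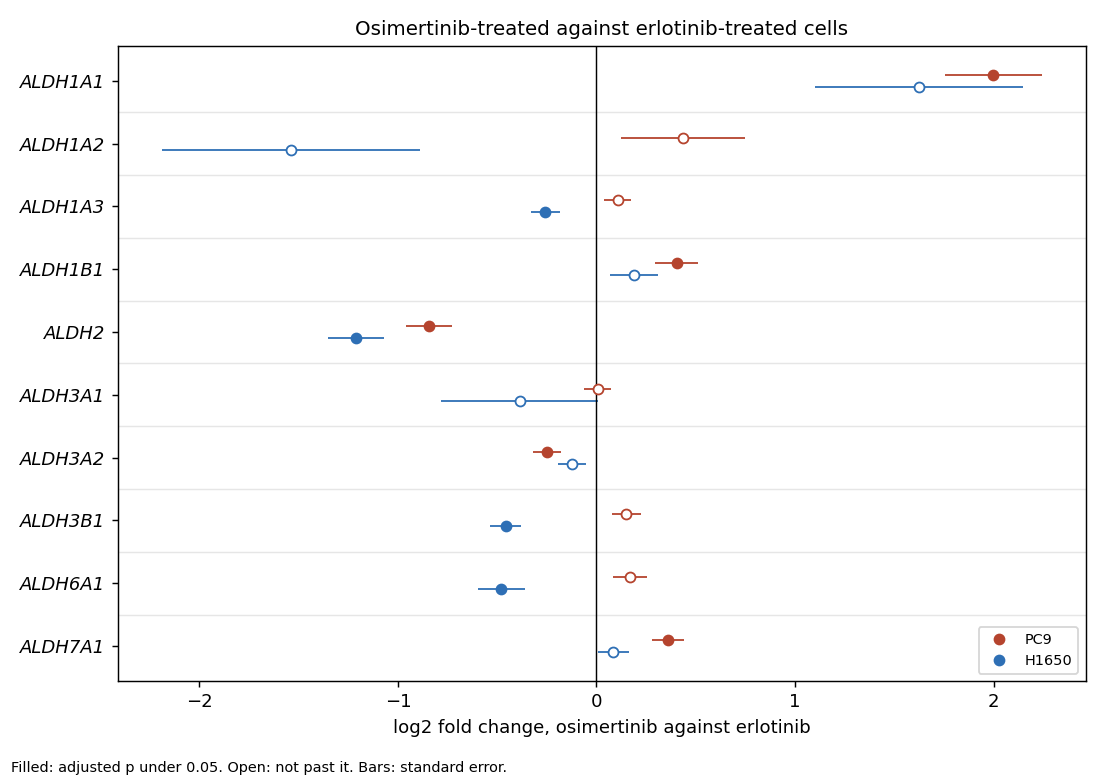
Log2 fold change between osimertinib-treated and erlotinib-treated cells with its standard error, in PC9 (red) and H1650 (blue), filled where the adjusted p was under 0.05. ALDH2 lies left of 0 in both lines, at -0.84 in PC9 and -1.21 in H1650, and ALDH1A1 lies at 2.00 in PC9 and 1.62 in H1650.

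ALDH2 was lower with osimertinib in both lines, by -0.84 in PC9 (SE 0.116, adjusted p = 4.53e-06) and by -1.21 in H1650 (SE 0.140, adjusted p = 5.45e-07). ALDH1A1 was higher with osimertinib in PC9, by 2.00 (SE 0.242, adjusted p = 5.9e-07). In H1650 its difference of 1.62, from 9 reads against 30 in all, lay at the threshold (adjusted p = 0.0505, and 0.0494 with RLE scaling). ALDH7A1 (0.36, adjusted p = 0.00177) and ALDH1B1 (0.40, adjusted p = 0.00845) were higher and ALDH3A2 lower (-0.25, adjusted p = 0.0126) with osimertinib in PC9. Leaving out 1 PC9 library lost the ALDH1B1 call (erlotinib replicate 1, 0.134, or osimertinib replicate 2, 0.0701) and the ALDH3A2 call (erlotinib replicate 2, 0.143, or either osimertinib replicate, 0.054 and 0.076). The number of PC9 calls was 3 without osimertinib replicate 2.

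In H1650 the lower genes besides ALDH2 were ALDH3B1 (-0.46, adjusted p = 0.000177), ALDH6A1 (-0.48, adjusted p = 0.00805) and ALDH1A3 (-0.26, adjusted p = 0.0234). The ALDH6A1 call was lost without erlotinib replicate 1 (adjusted p = 0.0677) or osimertinib replicate 1 (0.161), and the ALDH1A3 call without erlotinib replicate 2 (0.324) or either osimertinib replicate (0.128 and 0.156). The number of calls was 2 without osimertinib replicate 1. ALDH3A1, the most abundant member in PC9, differed there by 0.00524 between the drugs (95% interval -0.13 to 0.14, adjusted p = 0.994).

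Of the 9 other ALDH genes searched by symbol, 8 were tested and ALDH8A1 was below the filter. At T0, 4 were higher in H1650 than in PC9 and 2 lower, where 35.8% of all tested genes were higher and 33.8% lower. The median log2 difference of the 8 genes, H1650 minus PC9, was 0.26 against 0.0389 over all tested genes. In PC9, 4 rose and 3 fell after erlotinib, and 3 rose and 2 fell after osimertinib. In H1650, 6 rose and 1 fell after erlotinib, and 5 of the 8 rose after osimertinib. For all tested genes, 32.7% rose in PC9 after either drug and 29.1% and 28.7% fell, against 18.0% and 17.8% that rose and 18.5% and 17.9% that fell in H1650. The median log2 fold change of the 8 genes was 0.47 and -0.0168 in PC9 and 0.68 and 0.42 in H1650, beside 0.0743, 0.0644, 0.00508 and 0 over all tested genes. ALDH3B2, a close relative of ALDH3B1, rose from 0.476 ± 0.324 normalized CPM (SD, n = 2) in PC9 at T0 to 9.79 ± 0.772 after erlotinib and 11.2 ± 0.515 after osimertinib. In H1650 it stood at 11.8 ± 0.387, 43.4 ± 2.73 and 32.1 ± 1.36, and each rise passed the test. ALDH1L2, the mitochondrial enzyme that oxidizes formyl-tetrahydrofolate, separated the drugs. It went from 0.845 ± 0.269 to 10.8 ± 1.37 after erlotinib in PC9 and from 16.9 ± 0.739 to 88.6 ± 5.39 in H1650, while after osimertinib it was at 0.487 ± 0.292 and 23.6 ± 0.340. Osimertinib against erlotinib gave -4.41 in PC9 (adjusted p = 7.51e-14) and -1.91 in H1650 (adjusted p = 1.6e-12). ALDH5A1, the succinate semialdehyde dehydrogenase, rose in all 4 drug comparisons, by 1.03 and 1.38 in PC9 and by 0.86 and 0.37 in H1650.

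The retinoid pathway list holds the partners of the ALDH1A enzymes, such as retinol dehydrogenases, binding proteins, receptors and the CYP26 enzymes that degrade retinoic acid. Of its 23 tested genes, 12 rose and 4 fell in PC9 after erlotinib, and 13 rose and 4 fell after osimertinib, where 32.7% of all tested genes rose and 29.1% and 28.7% fell. In H1650, 8 rose and 2 fell after erlotinib, where 18.0% of all tested genes rose and 18.5% fell. After osimertinib 9 of the 23 rose, where 17.8% of all tested genes rose. The list's median log2 fold change was 0.78 and 0.86 in PC9 and 0.36 and 0.37 in H1650. Over all tested genes it was 0.0743, 0.0644, 0.00508 and 0. RARB, a receptor that is itself a target of retinoic acid, went from 0.296 ± 0.348 normalized CPM (SD, n = 2) to 4.68 ± 0.224 and 7.10 ± 0.177 in PC9, with adjusted p of 1.3e-08 and 4.73e-10. In H1650 RARB stayed between 0.422 and 0.703 and was not called (adjusted p = 0.35 and 0.302). BCO1, which cleaves carotene to retinaldehyde, rose in both lines, from 0.249 ± 0.0668 to 2.17 ± 0.152 and 3.23 ± 0.188 in PC9 and from 0.0852 ± 0.0114, which is 2 reads in each library, to 0.627 ± 0.231 and 0.892 ± 0.249 in H1650 (adjusted p = 0.00153 and 0.000134). Its response did not pass the test of a difference between the lines (adjusted p = 0.913 and 0.871).

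Among 14 tested genes of other carbonyl and alcohol enzymes, 6 rose and 4 fell in PC9 after erlotinib, and 8 rose and 3 fell after osimertinib. Of all tested genes there, 32.7% rose after either drug and 29.1% and 28.7% fell, so the share of the list that fell was not above the background. In H1650, 5 rose and 4 fell, and 5 rose and 3 fell, beside 18.0% and 17.8% that rose and 18.5% and 17.9% that fell. The median log2 fold change stood at 0.11 and 0.28 for PC9, and at 0.38 and 0.27 for H1650. AKR1C3, an aldo-keto reductase that like ALDH3A1 is common in non-small cell lung cancer, was also high in PC9 and low in H1650, with 581 ± 0.925 normalized CPM (SD, n = 2) in PC9 and 0.217 ± 0.0887 in H1650 at T0. In PC9 it rose to 1239 ± 24.2 and 1210 ± 44.8, and in H1650 to 0.772 ± 0.290 and 1.44 ± 0.287 (adjusted p = 0.000966 and 7.81e-07). AOX1, the aldehyde oxidase, fell in H1650 from 15.1 ± 0.430 to 1.54 ± 0.0612 and 2.78 ± 0.222. In PC9 it fell after erlotinib, from 19.3 ± 1.90 to 12.5 ± 0.879 (adjusted p = 0.000126), and was at 18.0 ± 0.624 after osimertinib (adjusted p = 0.515). ADH1C, an alcohol dehydrogenase, had no reads in PC9 at T0 and 1.41 ± 0.343 and 0.905 ± 0.0919 normalized CPM after the drugs. In H1650 ADH1C had 0.314 ± 0.281 at T0, from 11 and 3 reads, and 0.0233 ± 0.0329 after erlotinib (lower, adjusted p = 0.0302) and 0.0699 ± 0.0360 after osimertinib (adjusted p = 0.109), with at most 2 reads in any treated library.

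The partners of ALDH6A1 and ALDH7A1 in valine and lysine breakdown were also counted. Of 13 tested genes, 7 rose and 4 fell in PC9 after erlotinib, and 7 rose and 3 fell after osimertinib, beside 32.7% of all tested genes that rose and 29.1% and 28.7% that fell. In H1650, 4 rose and 1 fell, and 5 rose and 1 fell, beside 18.0% and 17.8% that rose and 18.5% and 17.9% that fell. The median log2 fold change stood at 0.23 and 0.26 for PC9, and at 0.16 and 0.0103 for H1650. HIBADH, which acts upstream of ALDH6A1 in valine breakdown, rose in all 4 comparisons, from 54.9 ± 0.627 normalized CPM (SD, n = 2) to 121 ± 2.07 and 135 ± 4.98 in PC9 and from 126 ± 2.95 to 186 ± 2.04 and 185 ± 4.03 in H1650. AASS, the enzyme that starts lysine breakdown through saccharopine, rose in PC9 from 5.28 ± 0.979 to 18.3 ± 0.697 and 32.7 ± 2.07, and was under 0.1 in H1650. BCAT1, the cytosolic branched-chain aminotransferase, also rose in all 4 comparisons.

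The AHR and NRF2 targets, the kind of genes with which ALDH3A1 is often grouped, were mostly lower with osimertinib than with erlotinib in both lines. Osimertinib against erlotinib gave 9 of the 12 tested genes lower in each line, where 6.41% of all tested genes were lower in PC9 and 3.73% in H1650. Against T0, 10 rose and 1 fell in PC9 after erlotinib and 6 rose and 1 fell after osimertinib, beside 32.7% of all tested genes that rose and 29.1% and 28.7% that fell. In H1650, 5 rose and 2 fell after erlotinib, whereas 9 of the 12 fell after osimertinib, beside 18.0% that rose and 18.5% that fell after erlotinib and 17.9% that fell after osimertinib. The median log2 fold change stood at 0.80 and 0.57 for PC9, and at 0.23 and -0.59 for H1650. AHRR, the repressor of the aryl hydrocarbon receptor, was at 6.32 ± 2.10 normalized CPM (SD, n = 2) in PC9 at T0 and rose to 73.9 ± 3.48 and 49.2 ± 4.34. AHRR in H1650 was at 10.8 ± 0.195 at T0 and 11.8 ± 0.941 after erlotinib (adjusted p = 0.538), and it fell to 5.29 ± 0.878 after osimertinib (adjusted p = 1.06e-05). CYP1A1, the classical target of that receptor, rose from 0.422 ± 0.170 to 4.87 ± 0.649 after erlotinib in PC9 and was at 0.762 ± 0.0318 after osimertinib (adjusted p = 0.132). In H1650 it stood at 9.22 ± 0.995 at T0, 21.6 ± 5.66 after erlotinib and 2.15 ± 0.268 after osimertinib. CYP1A2 stayed under 0.7 in all groups and was not called after either drug.

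The genes whose log2 level followed a member most closely over the 12 libraries are given as a description, since line and treatment set most of each pattern and Pearson's r was taken over the same libraries for each. IGFBP6 was closest to ALDH3A1 (r = 0.9996). TMEM14C and GATA6 were closest to ALDH1A3 (0.996 for each), NEDD9 and TPP1 to ALDH6A1 (0.996 and 0.994), and ADAMTSL4 and SLC35E2B to ALDH3B1 (0.992 and 0.991). ATP10D and KLF5 were closest to ALDH1A1 (0.992 for each), OTUD1 and HERPUD2 to ALDH1A2 (0.985 and 0.982), and RETSAT, a retinol saturase, and SLC16A5 to ALDH2 (0.987 and 0.972). VCL and PALM2AKAP2 were closest to ALDH1B1 (0.989 and 0.984), THNSL1 and BCAT1 to ALDH3A2 (0.994 and 0.989), and GBP4 and BEX3 to ALDH7A1 (0.979 and 0.974).

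Some members share sequence or exons with other genes, and the strand setting of the counting is not given in the sources used here, so their reads cannot be told apart. In GENCODE 29, exons of ALDH1A3 overlap the gene AC015712.2 on the opposite strand, and 36.5% of the 50-base words of its longest transcript occur in other genes, nearly all in that one. AC015712.2 had 315 to 324 reads in PC9 at T0 and 798 to 1372 after drug, beside 7196 to 21366 reads of ALDH1A3 in the PC9 libraries. These counts do not show how many ALDH1A3 reads were shared or lost. For ALDH6A1 the share was 13.8%, most of it with BBOF1 on the opposite strand, which had 59 to 66 reads in PC9 at T0 and 167 to 265 after drug. In H1650 BBOF1 had 174 to 187 reads at T0, 197 to 239 after erlotinib and 176 to 199 after osimertinib. ALDH6A1 itself had 125 to 151, 239 to 254 and 170 to 206 reads in these H1650 groups. The part of this overlap in the ALDH6A1 values of H1650, and in its difference between the lines, was not tested. ALDH2 shared 9.79% of its words, mostly with AC002996.1, which had 0 reads, and ALDH7A1 shared 7.12% with its pseudogene ALDH7A1P1, which had 0 to 5 reads per library. For the other 6 members the share was under 4%.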

How the data were processed

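RNA-seq libraries of PC9 and H1650 cells at T0 and after erlotinib or osimertinib were analysed, 2 per group. The authors deposited raw featureCounts read counts per gene and library from the DolphinNext pipeline, unnormalized, and a gene length column. GRCh38 and DESeq2 are named in the submitters' processing notes, while the aligner, annotation and strand setting are not given in the sources used here. Samples were grouped by their labels. In R 4.3.3, edgeR 4.0.16 filtered genes by group (19108 kept, 41483 left out), scaled libraries by TMM (factors 0.941 to 1.08) and fitted a quasi-likelihood model with 6 groups to all 12 libraries, with 6 residual degrees of freedom. Genes were called at a Benjamini-Hochberg adjusted p under 0.05, two-sided. Standard errors are the size of the log2 fold change divided by the square root of the test's F statistic. Intervals without another name are 95% intervals of the log2 fold change built from these errors. For genes with few reads they can be narrower than counting error allows. Counting intervals are exact and conditional on the summed reads. Replicates differed beyond counting noise in every group (chi-square of 3.78 to 6.56 per gene). Library totals ran from 17961765 to 26346187 reads, and mitochondrial genes took 4.36% to 7.20%.

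The members and lists were chosen with earlier results of these data known. Named besides the members were, from each list (other ALDH genes, retinoid pathway, other carbonyl and alcohol enzymes, valine and lysine degradation partners, AHR and NRF2 targets), the 3 tested genes with the largest mean size of change over the 4 drug comparisons, and for each member the 2 genes of at least 10 normalized CPM with the highest Pearson correlation, on log2 of normalized CPM plus 0.5. Some genes that this rule names are not reported here. AC015712.2, BBOF1 and other overlapping genes were taken from GENCODE 29. Alternatives were RLE scaling, DESeq2 1.42.0, no low count filter, at least 10 counts in every library, a block for the replicate number, 1 fit per cell line, a threshold of 0.01, and leaving out each library. The scripts were tested on simulated counts.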

Additional observations from a re-analysis of the deposited data

Results flagged for a closer look

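The responses of 7 members differed between the lines by the drug-by-line test of edgeR's quasi-likelihood fit, given here as the log2 fold change in H1650 minus that in PC9. With erlotinib the difference was -4.00 for ALDH1A1 (adjusted p = 0.000116), -2.89 for ALDH1A2 (0.00556), -1.46 for ALDH1A3 (1.15e-12), 2.57 for ALDH2 (2.32e-10), -0.96 for ALDH3B1 (3.29e-08) and -1.13 for ALDH6A1 (1.22e-06). With osimertinib it was -4.37 for ALDH1A1 (adjusted p = 9.97e-06), -4.87 for ALDH1A2 (6.18e-05), -1.83 for ALDH1A3 (1.2e-14), -0.57 for ALDH1B1 (0.003), 2.20 for ALDH2 (1.4e-08), -1.57 for ALDH3B1 (2.17e-12) and -1.78 for ALDH6A1 (4.56e-10). ALDH1A3 was the member called higher in PC9 and lower in H1650 with both drugs. The erlotinib difference of ALDH1A2 was no longer called without T0 replicate 1 of H1650 (-1.85, adjusted p = 0.215). Groups of 2 libraries are too small to test single samples for standing apart.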

How the results depend on the processing

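The number of members called stayed within 1.5 times its value under every alternative other than leaving out 1 library in the comparisons between the drugs: it was 3 to 4 in PC9 (5 with all libraries) and 2 to 3 in H1650 (4 with all libraries), the lowest values being those without osimertinib replicate 2 of PC9 and without osimertinib replicate 1 of H1650. The small ALDH3A1 difference between the drugs in PC9 turned to -0.0186 with no low count filter and -0.0149 with 1 fit per cell line, and ran from -0.0364 (without osimertinib replicate 2) to 0.0460 when 1 library was left out, with -0.0288 without erlotinib replicate 2. Leaving out 1 library also turned 3 others: ALDH1A2 in H1650 against PC9 at T0 ran from -0.82 (without T0 replicate 1 of H1650) to 1.61, with -0.47 without T0 replicate 1 of PC9, ALDH1A2 in H1650 after osimertinib from -1.28 to 0.41 (without T0 replicate 1), and the ALDH7A1 response difference for osimertinib from -0.23 to 0.00268 (without T0 replicate 2 of H1650). None of these was called, and the cause was not tested. Of the log2 fold changes of single members, 409 kept their direction and call when 1 library was left out, 23 lost the call, 2 gained it and 6 turned, and 471, 5, 4 and 2 did so under the other alternatives. Requiring at least 10 counts in every library left the members with few reads untested, so 7 were called in PC9 after erlotinib. With the replicate number as a block, 7 members in place of 6 differed between the lines with erlotinib (ALDH1B1 added, adjusted p = 0.0336) and 5 in place of 4 between the drugs in H1650 (ALDH1A1 added, 0.0366). The block changed no other call. No pairing by replicate number was detected, as the deviations of same-numbered libraries correlated at -0.0671 to 0.0947 over 15 pairs of groups. This does not exclude that same-numbered libraries were handled together. Depth limits ALDH1A1 and ALDH1A2 at T0 and in H1650, and ALDH3A1 in H1650, where a few reads set the fold change.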
